A study of Homo sapiens with 5 samples.

Results

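The 36 genes described here comprise 25 of glycolysis, from glucose uptake to lactate export, and 11 of the cellular response to low oxygen. They were chosen by name, with earlier results of these data known. All 36 were listed among the 15187 genes that the 2 deposited count tables share. Their transcripts were measured by RNA-seq in the SAS line, which is an established culture of human squamous carcinoma cells from the tongue. There were 3 libraries of cells carrying short hairpin RNA against CCT2 (shCCT2) and 2 libraries of cells carrying control hairpin RNA (shCtrl), with no other treatment, time or allele given by the labels. CCT2 encodes a subunit of the cytosolic chaperonin, which folds actin, tubulin and other proteins. The first deposited table, set 1, held shCCT2 1, shCCT2 2 and shCtrl 1, and the second, set 2, held shCCT2 3 and shCtrl 2. Each knockdown library was therefore compared with the control library of the same set. The labels do not say whether 1 hairpin sequence or several were used, nor whether each library is a culture of its own, so p-values reflect only how these libraries vary, possibly for technical reasons.

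Glycolysis splits glucose into pyruvate in the cytosol, first spending ATP down to the triose phosphates and then regaining it between GAPDH and pyruvate kinase. Many tumour cells turn much of the pyruvate into lactate even when oxygen is present, and squamous carcinomas of the head and neck often hold poorly oxygenated regions. When oxygen is low, prolyl hydroxylases no longer mark HIF-1 alpha for destruction, and the factor binds the hypoxia response element of many target genes, including most genes of glycolysis.

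Promoter sequences are shown for LDHA, PGK1, ENO1 and EGLN3, which stood about 2-fold higher in shCCT2 3 than in its control, and for PFKP and ALDOC, which stood far lower there. Each is the 250 bases before the gene's start on its own strand, from RefSeq on GRCh38.p14, with capitals marking the core of the hypoxia response element, ACGTG or GCGTG, on either strand. The windows lie at chr11:18394313-18394562 (plus strand) for LDHA, chrX:78103998-78104247 (plus strand) for PGK1, chr1:8878687-8878936 (minus strand) for ENO1, chr14:33951075-33951324 (minus strand) for EGLN3, chr10:3067720-3067969 (plus strand) for PFKP and chr17:28576896-28577145 (minus strand) for ALDOC.
LDHA promoter: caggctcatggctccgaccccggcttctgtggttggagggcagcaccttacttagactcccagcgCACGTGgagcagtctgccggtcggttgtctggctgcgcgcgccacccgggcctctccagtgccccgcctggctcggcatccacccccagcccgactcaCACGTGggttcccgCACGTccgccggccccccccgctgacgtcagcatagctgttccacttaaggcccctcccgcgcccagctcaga
PGK1 promoter: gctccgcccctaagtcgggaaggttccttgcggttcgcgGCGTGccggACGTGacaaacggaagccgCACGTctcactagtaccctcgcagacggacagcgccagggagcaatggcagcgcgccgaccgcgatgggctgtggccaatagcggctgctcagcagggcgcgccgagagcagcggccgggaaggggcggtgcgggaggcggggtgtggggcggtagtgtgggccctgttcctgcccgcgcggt
ENO1 promoter: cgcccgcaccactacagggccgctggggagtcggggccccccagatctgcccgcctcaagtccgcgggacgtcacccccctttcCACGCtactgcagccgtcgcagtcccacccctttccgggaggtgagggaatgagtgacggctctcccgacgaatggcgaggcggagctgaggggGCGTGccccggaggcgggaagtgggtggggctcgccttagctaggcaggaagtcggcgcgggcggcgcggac
EGLN3 promoter: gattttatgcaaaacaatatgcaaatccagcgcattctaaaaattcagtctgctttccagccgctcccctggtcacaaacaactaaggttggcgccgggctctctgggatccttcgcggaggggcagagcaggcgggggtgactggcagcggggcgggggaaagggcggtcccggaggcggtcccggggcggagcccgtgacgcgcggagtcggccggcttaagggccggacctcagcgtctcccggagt
PFKP promoter: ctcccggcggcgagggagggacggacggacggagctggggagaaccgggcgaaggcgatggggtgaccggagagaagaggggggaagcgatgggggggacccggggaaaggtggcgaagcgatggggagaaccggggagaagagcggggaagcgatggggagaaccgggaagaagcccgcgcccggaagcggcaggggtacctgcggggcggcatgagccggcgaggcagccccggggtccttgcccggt
ALDOC promoter: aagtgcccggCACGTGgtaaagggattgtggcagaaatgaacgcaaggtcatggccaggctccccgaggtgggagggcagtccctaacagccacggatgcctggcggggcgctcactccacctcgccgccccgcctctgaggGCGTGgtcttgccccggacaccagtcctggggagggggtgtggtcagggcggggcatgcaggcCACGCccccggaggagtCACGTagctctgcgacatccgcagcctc

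The motif search covered the same bases and the 50 after the start. LDHA held 6 matches, among them both strands of each of 2 CACGTG words, the E-box, which contains ACGTG. PGK1 held 4 matches, ENO1 held 2 and EGLN3 held 0, and of the lower genes PFKP held 0 and ALDOC held 5. The other members with a window that differed by 0.5 log2 or more in set 2 are given here. Matches numbered 6 in BNIP3 (1.92-fold higher), 1 in PKM (1.98-fold higher) and 0 in TPI1 (1.80-fold higher). They numbered 1 in P4HA1 (at 0.497 of its control), 1 in PFKFB3 (0.565), 0 in PGM1 (0.623), 1 in CA9 (0.638) and 0 in HK1 (0.694). Any link between matches and change was not tested. Of the members, 31 had a window, and the others were SLC2A3, SLC16A1, VEGFA, NDRG1 and BNIP3L. Either core was present in 21 of 31 members (67.7%), in 63.1% of 10628 genes tested for expression and in 48.4% of all 27305 promoters. ACGTG was found in 38.7% of the members, 26.4% of the tested genes and 21.6% of all promoters, GCGTG in 45.2%, 50.8% and 36.3%, and CACGTG in 16.1%, 10.1% and 7.43%. The median GC content was 69.7% in the members, 65.3% in the tested genes and 58.3% in all promoters, and a match is only a description of these letters.

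The library totals ran from 17555763 to 18156592 expected counts in shCCT2 libraries and were 17976483 and 16913585 in shCtrl libraries. CCT2 itself stood at 296, 272 and 260.2 CPM (counts scaled to a common library size with TMM factors) in shCCT2 libraries, against 629.9 and 642 CPM in shCtrl libraries. Its fitted log2 change was -1.22 ± 0.18 (SE), with an adjusted p of 0.542 in edgeR's quasi-likelihood test and 3.81e-05 in DESeq2. All 12 squamous epithelial markers were listed, and their summed level was 9170.2, 13088 and 9391 CPM in shCCT2 1, 2 and 3, against 13029 and 3655 CPM in shCtrl 1 and 2. KRT8 and KRT18 were among the largest parts of each sum. Against the own control, 4, 5 and 10 of the 12 were higher in shCCT2 1, 2 and 3, with median log2 changes of -0.43, -0.10 and 1.09. They differed among themselves, since KRT6A, a stress keratin, stood at 45.6, 45.9 and 630.4 CPM in the shCCT2 libraries, against 40.3 and 64.8 CPM in the shCtrl libraries, and KRT17 at 629, 987 and 111 CPM in the shCCT2 libraries, against 1115 and 404 CPM in the shCtrl libraries. CDH1, the epithelial cadherin, was low in both set 2 libraries, at 185, 213 and 24.9 CPM in the shCCT2 libraries, against 251 and 10.6 CPM in the shCtrl libraries. Summed levels were 7.42 to 22.2 CPM in shCCT2 and 12.6 to 13.5 CPM in shCtrl for the 4 of 9 fibroblast markers listed, with COL1A2, COL3A1, DCN, LUM and THY1 not listed in both tables. For the 5 leukocyte markers listed in both tables they were 44.6 to 123 CPM in shCCT2 and 62.2 to 121 CPM in shCtrl, mostly CD68, and CD3E and CD4 were not listed in both. For 5 of 6 endothelial markers they were 2.07 to 3.46 CPM in shCCT2 and 4.44 to 7.48 CPM in shCtrl, with TEK not listed in both tables. The 2 controls differed at least 2-fold in 29.7% of 13123 genes tested. The share of signal in the last 20% of transcript positions was 13.8%, 15.3% and 14.1% in shCCT2 1, 2 and 3, against 16.7% and 15.2% in shCtrl 1 and 2, lower in each knockdown library than in its own control. The part of these differences in the results below was not tested.

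Whether glycolysis and hypoxia genes differed after CCT2 knockdown was read from 1 fit over all 5 libraries with the set as a term. None of the 36 members passed an adjusted p under 0.05 in edgeR's test in either direction, and 0% of the 13123 genes tested did. At an unadjusted p under 0.05, 1 member, LDHA, was higher (2.83% of all genes) and 0 were lower (4.57% of all genes), and DESeq2 called 0 members and 17 genes (0.13%), with no adjusted p for ANKRD37. The fitted change was above 0 for 20 members and below 0 for 16, with a median log2 change of 0.04, beside -0.02 for all genes tested. The 25 glycolysis genes had a median of 0.05 and the 11 hypoxia genes a median of 0.02. By library, the glycolysis median was 0.06, 0.03 and 0.23 in shCCT2 1, 2 and 3. The hypoxia median was -0.16, 0.15 and 0.19, with 3, 8 and 6 of the 11 genes higher than in the own control. Without shCtrl 1 the fitted medians were 0.26 for glycolysis and 0.29 for hypoxia genes, from the set 2 pair alone. In bulk RNA, fewer cells of a type and less RNA per cell cannot be told apart.

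Direction was shared by all 3 knockdown libraries in 10 members. SLC2A1, TPI1, GAPDH, PGAM1, PFKFB4, LDHA, ADM and HIF1A were higher in each than in its own control, 8 of 36 where 20.2% of all genes were. PFKM and PDK1 were lower in each, 2 of 36 where 21.4% of all genes were. A change of any size counted, and the log2 changes in shCCT2 1, 2 and 3 were -0.09, -0.01 and -0.39 for PFKM and 0.13, 0.03 and 0.23 for SLC2A1. In 6 members, TPI1, GAPDH, PFKFB4, LDHA, ADM and HIF1A, every shCCT2 library lay above both shCtrl libraries (7.96% of all genes), and PDK1 lay below both (8.28% of all genes). No member differed by 0.5 log2 or more in 1 direction in all 3 libraries, against 0.267% of all genes higher and 1.67% lower.

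**Figure D1:**
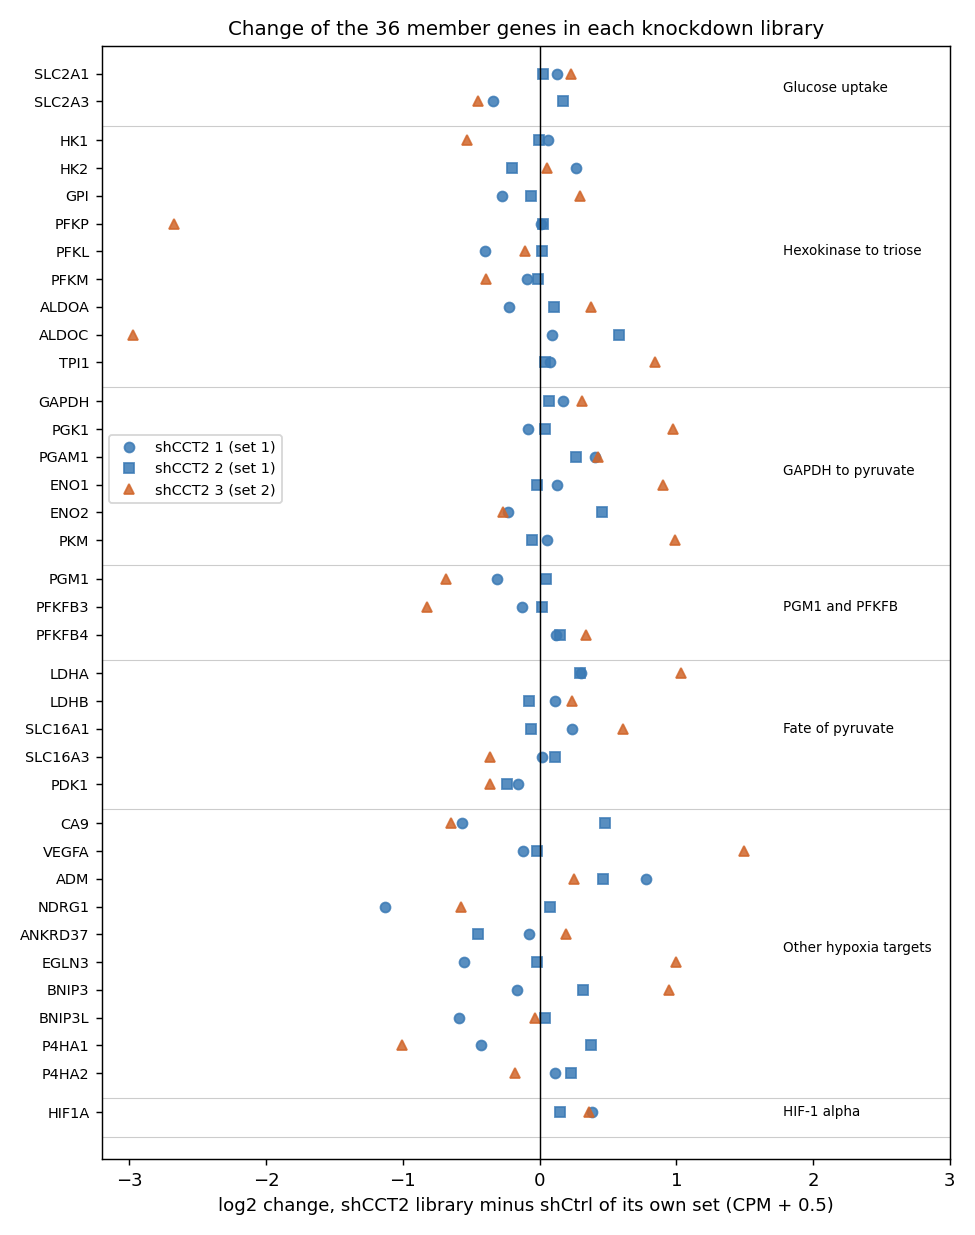
Log2 change of each of the 36 members in the 3 knockdown libraries, each against the control of its own set, from TMM-scaled CPM with 0.5 added. Circles and squares are shCCT2 1 and 2 of set 1 and triangles shCCT2 3 of set 2; the median size of the change is 0.13 in set 1 and 0.44 in set 2, with triangles out to -2.97 for ALDOC and 1.5 for VEGFA.

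Glucose enters through SLC2A1 (GLUT1) and SLC2A3 (GLUT3), transporters of the plasma membrane. SLC2A1 stood at 289, 270.3 and 319 CPM in the shCCT2 libraries, against 265 and 273 CPM in the shCtrl libraries, with a fitted log2 change of 0.14 ± 0.18. SLC2A3 stood at 12.4, 17.9 and 61.7 CPM in the shCCT2 libraries and 15.9 and 84.4 CPM in the shCtrl libraries (-0.24 ± 0.24). Both set 2 libraries were high for SLC2A3 and all set 1 libraries low, with the groups overlapping. Per kilobase of transcript, SLC2A3 made up 3.87%, 5.85% and 15.3% of the pair in shCCT2 1, 2 and 3, against 5.30% and 22.5% in shCtrl 1 and 2.

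The steps from hexokinase to triose phosphate had a median fitted log2 change of -0.15 over 9 genes, 4 above 0 and 5 below. Hexokinase traps glucose as glucose-6-phosphate. HK1, the broadly expressed form, stood at 247, 236 and 174 CPM in the shCCT2 libraries, against 237 and 251 CPM in the shCtrl libraries (-0.21 ± 0.21). HK2, the form that HIF-1 induces, stood at 74.5, 53.8 and 92.6 CPM in the shCCT2 libraries, against 61.9 and 89.2 CPM in the shCtrl libraries (0.05 ± 0.21). HK1 was lowest in shCCT2 3, and HK2 was high in both set 2 libraries. GPI, which isomerises glucose-6-phosphate, stood at 386, 447 and 404 CPM in the shCCT2 libraries, against 467 and 328 CPM in the shCtrl libraries (0.03 ± 0.21), and was lower in both set 1 knockdown libraries and higher in the set 2 one than in their controls.

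Phosphofructokinase, which commits sugar to glycolysis, is encoded by 3 paralogs, PFKP (platelet), PFKL (liver) and PFKM (muscle). PFKP stood at 232, 236 and 38.8 CPM in the shCCT2 libraries, against 231 and 249.99 CPM in the shCtrl libraries. The low value is that of shCCT2 3, with 710 counts where the other libraries had 3946 to 4715, and the other libraries lay within 231 to 249.99 CPM. Its log2 changes were 0.01, 0.03 and -2.67, and the fitted change of -1.20 ± 0.63 (edgeR adjusted p = 0.542) was 0.02 with either library of set 2 left out. PFKL stood at 78.4, 105 and 100.4 CPM in the shCCT2 libraries, against 104 and 108 CPM in the shCtrl libraries (-0.15 ± 0.20). PFKM stood at 101, 107 and 70.3 CPM in the shCCT2 libraries, against 108 and 92.6 CPM in the shCtrl libraries (-0.20 ± 0.18), and the groups overlapped for both. Per kilobase, PFKP made up 58.5%, 54.8% and 19.8% of the 3 paralogs in shCCT2 1, 2 and 3, against 54.3% and 57.6% in shCtrl 1 and 2. PFKL made up 46.8% in shCCT2 3 and 22.7% in shCtrl 2.

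Aldolase cleaves fructose-1,6-bisphosphate, and triosephosphate isomerase interconverts the products. ALDOA, the main aldolase here, stood at 889, 1121 and 1563 CPM in the shCCT2 libraries, against 1040.3 and 1206 CPM in the shCtrl libraries (0.13 ± 0.22). ALDOC, the brain form, stood at 0.707, 1.19 and 0.928 CPM in the shCCT2 libraries and 0.634 and 10.7 CPM in the shCtrl libraries (-1.46 ± 1.10), which are 12, 20 and 17 counts against 11 and 202 counts. The single high library for ALDOC was shCtrl 2, and the fitted change was 0.58 without either set 2 library. TPI1 stood at 867, 844 and 1222 CPM in the shCCT2 libraries, against 822 and 679 CPM in the shCtrl libraries. All 3 knockdown libraries lay above both controls, the log2 changes against the own control were 0.08, 0.04 and 0.85, and the fitted change was 0.39 ± 0.24, or 0.06 without either set 2 library.

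From GAPDH to pyruvate kinase, 5 of 6 genes had a fitted change above 0, with a median of 0.38. The median change by library was 0.09, 0.05 and 0.67 in shCCT2 1, 2 and 3, while that of all genes was 0.00, 0.00 and -0.02. GAPDH, which makes 1,3-bisphosphoglycerate and NADH, stood at 7106, 6609 and 7527 CPM in the shCCT2 libraries, against 6303 and 6077 CPM in the shCtrl libraries (0.20 ± 0.19), with no overlap of the groups. PGK1, which makes the first ATP regained, stood at 407, 443 and 932 CPM in the shCCT2 libraries, against 432 and 473 CPM in the shCtrl libraries. The library that stood apart for PGK1 was shCCT2 3, and the fitted change of 0.39 ± 0.27 was -0.02 without either set 2 library.

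PGAM1, which shifts the phosphate of 3-phosphoglycerate, stood at 939, 854 and 561 CPM in the shCCT2 libraries, against 709 and 418 CPM in the shCtrl libraries. Set 2 was lower than set 1 in both groups, and within sets the log2 changes were close, at 0.41, 0.27 and 0.42, with a fitted change of 0.38 ± 0.19 (edgeR unadjusted p = 0.0876, adjusted p = 0.542). Its expected counts were not whole in 5 of 5 libraries, as for GPI, PFKFB4 and SLC16A3, and those of P4HA2 and ANKRD37 in 4 and of SLC2A3 and PFKM in 2. The levels of these genes are uncertain where the authors' counting split reads with near-identical copies or overlapping genes.

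ENO1, the main enolase, stood at 2117, 1907 and 3973 CPM in the shCCT2 libraries, against 1935 and 2121 CPM in the shCtrl libraries, and its fitted change was 0.41 ± 0.25 (adjusted p = 0.546 in edgeR), or 0.06 without either set 2 library. ENO2, the neuronal form, stood at 15.5, 25.1 and 24.3 CPM in the shCCT2 libraries, against 18.2 and 29.4 CPM in the shCtrl libraries (-0.03 ± 0.30), and it gave at most 0.959% of the enolase pair per kilobase in any library. PKM, pyruvate kinase, stood at 2119, 1965 and 2342 CPM in the shCCT2 libraries, against 2039 and 1181 CPM in the shCtrl libraries. The low library for PKM was shCtrl 2, and the fitted change of 0.41 ± 0.27 was 0.00 without either set 2 library. ENO1 was thus set apart by a high shCCT2 3 and PKM by a low shCtrl 2, and the groups overlapped for PGK1, PGAM1, ENO1, ENO2 and PKM.

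**Figure D2:**
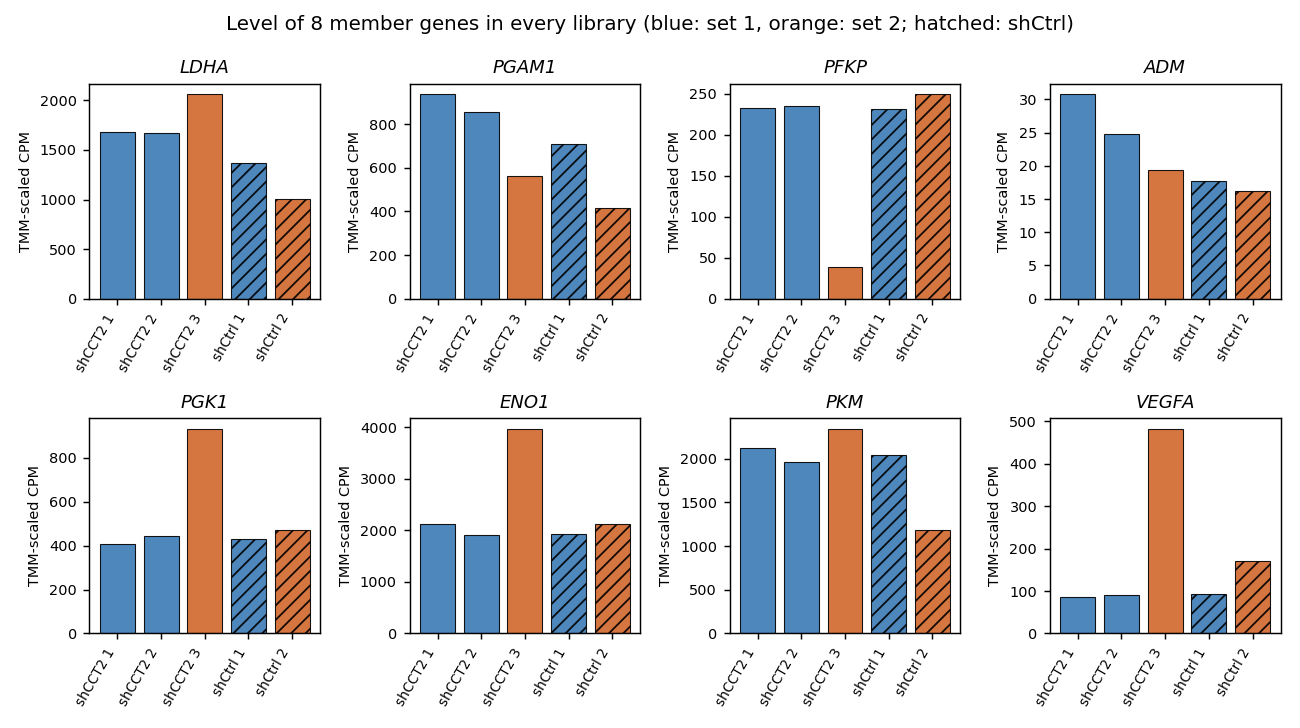
TMM-scaled CPM of 8 members in each library, as bars starting at 0, with shCCT2 1, 2 and 3 left of shCtrl 1 and 2; blue is set 1, orange set 2, and hatching marks shCtrl. PGK1, ENO1 and VEGFA are tallest and PFKP shortest in shCCT2 3, while PKM is shortest in shCtrl 2 and LDHA lies above both controls in all 3 knockdown libraries.

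The 17 enzymes from hexokinase to lactate dehydrogenase took 1.68%, 1.65% and 2.26% of all counts in shCCT2 1, 2 and 3, against 1.59% and 1.67% in shCtrl 1 and 2. GAPDH alone made up 34.4% to 39.5% of the enzyme counts in shCCT2 libraries, against 38.1% and 40.5% in shCtrl libraries. Without GAPDH, the share was 1.02%, 1.02% and 1.49% in shCCT2 1, 2 and 3 and 0.987% and 0.996% in shCtrl 1 and 2, so shCCT2 3 was the high library and the other 4 lay close together. On the scale of CPM per kilobase, averaged over the 5 libraries, GAPDH led at 4988, followed by ENO1 at 1353, PKM at 839.6, LDHA at 811 and TPI1 at 720.3. The order below ENO1 was not the same in every library, since in shCtrl 2 TPI1 stood at 552, LDHA at 525 and PKM at 514, and by the length of all exons LDHB stood above TPI1. The lowest members on that scale were ANKRD37 at 0.693, ALDOC at 1.53 and CA9 at 2.96.

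PGM1, PFKFB3 and PFKFB4 feed or steer the pathway. PGM1, which links glycogen to glucose-6-phosphate, stood at 114, 146 and 68.0 CPM in the shCCT2 libraries, against 141 and 109 CPM in the shCtrl libraries. Its log2 change was -0.31, 0.05 and -0.68 by library and -0.37 ± 0.22 in the fit (edgeR adjusted p = 0.548), or -0.12 without either set 2 library. PFKFB3 makes fructose-2,6-bisphosphate, the activator of phosphofructokinase, and stood at 38.1, 42.2 and 54.1 CPM in the shCCT2 libraries, against 41.7 and 96.2 CPM in the shCtrl libraries. Its high library was shCtrl 2, and the fitted change was -0.40 ± 0.24 (edgeR adjusted p = 0.544), or -0.06 without either set 2 library. PFKFB4, a related enzyme, stood at 13.3, 13.6 and 13.9 CPM in the shCCT2 libraries and 12.2 and 10.8 CPM in the shCtrl libraries, without overlap (0.23 ± 0.26). The PFKFB4 to PFKFB3 ratio was higher than in the own control in all 3 knockdown libraries, by 0.25, 0.13 and 1.17 log2.

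Pyruvate is reduced to lactate by lactate dehydrogenase, whose LDHA subunit favours lactate and whose LDHB subunit favours pyruvate. LDHA stood at 1682, 1675 and 2065 CPM in the shCCT2 libraries, against 1365 and 1009 CPM in the shCtrl libraries. All 3 knockdown libraries lay above both controls, and the log2 changes were 0.30, 0.29 and 1.03. The fitted change of 0.61 ± 0.23 had the smallest p of the 36 members in edgeR (unadjusted p = 0.0388, adjusted p = 0.542), and it was 0.30 without either library of set 2. In DESeq2 the adjusted p was 0.400 for LDHA and 0.396 for PFKP, which had the smaller p there. LDHB stood at 712, 625 and 809 CPM in the shCCT2 libraries, against 659 and 686 CPM in the shCtrl libraries (0.11 ± 0.19), with overlap. LDHA made up 63.6%, 66.4% and 65.4% of the pair per kilobase of principal transcript in shCCT2 1, 2 and 3, against 60.5% and 52.1% in shCtrl 1 and 2. By the length of all exons it made up 55.8%, 58.9% and 57.7%, against 52.6% and 44.0%, so LDHB was then the larger in shCtrl 2. The LDHB to LDHA ratio differed from that of the own control by -0.19, -0.37 and -0.80 log2 in shCCT2 1, 2 and 3.

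Lactate leaves through the monocarboxylate transporters. SLC16A1 (MCT1) stood at 268, 218 and 297 CPM in the shCCT2 libraries, against 228 and 194 CPM in the shCtrl libraries (0.31 ± 0.22), and its fitted change was 0.10 without shCCT2 3 and 0.09 without shCtrl 2. SLC16A3 (MCT4), the exporter known as a HIF-1 target, stood at 239.5, 257 and 132 CPM in the shCCT2 libraries, against 237 and 169 CPM in the shCtrl libraries (-0.12 ± 0.20). Both genes' groups overlapped. SLC16A3 made up 64.2%, 70.3% and 47.1% of the pair per kilobase of principal transcript in shCCT2 1, 2 and 3, against 67.7% and 63.6% in shCtrl 1 and 2. By the length of all exons it made up 44.6%, 51.5% and 28.6% in shCCT2 1, 2 and 3, against 48.4% and 44.0% in shCtrl 1 and 2, so the more abundant of the pair depended on the length in 3 of 5 libraries. PDK1, the kinase that turns off pyruvate dehydrogenase, stood at 50.2, 47.5 and 40.3 CPM in the shCCT2 libraries, against 56.0 and 52.1 CPM in the shCtrl libraries, and all 3 knockdown libraries lay below both controls. Its log2 changes were -0.15, -0.23 and -0.37 and the fitted change -0.27 ± 0.18 (edgeR adjusted p = 0.556).

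**Figure D3:**
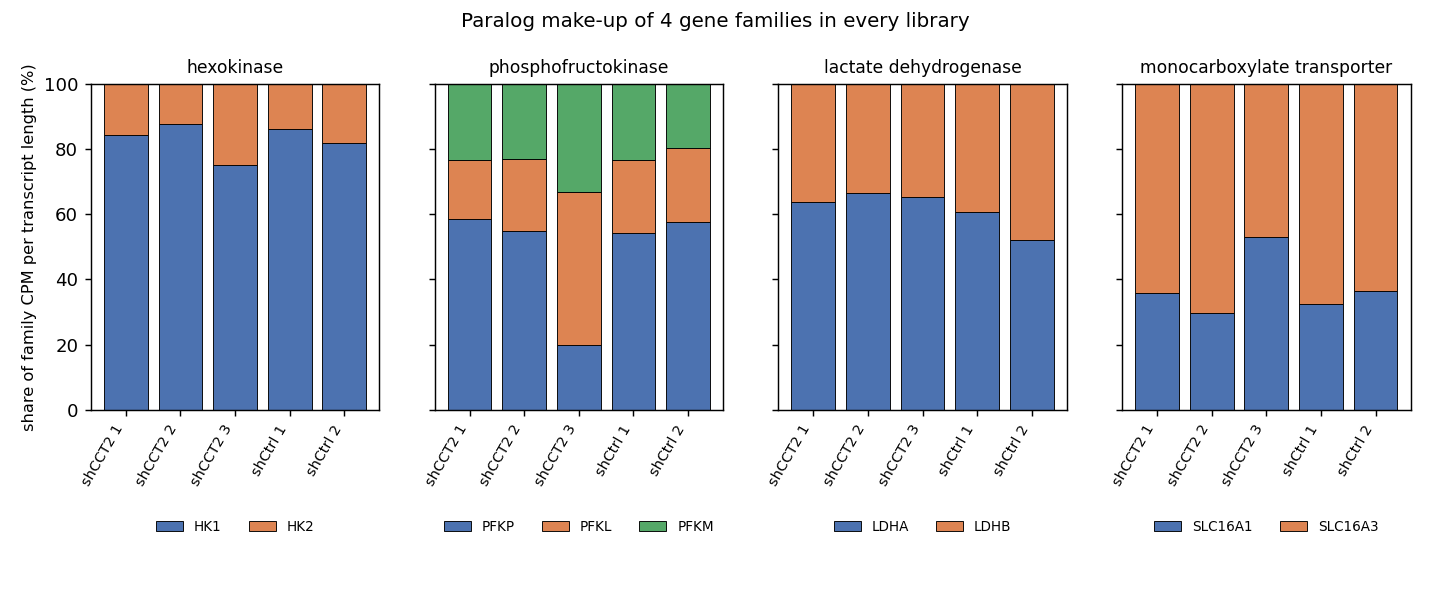
Share of each paralog in its family, in percent of the family's CPM per kilobase of principal transcript, in shCCT2 1, 2 and 3 and then shCtrl 1 and 2. PFKP holds 19.8% of phosphofructokinase in shCCT2 3 against 54.3% or more elsewhere, and LDHA holds 63.6% or more in shCCT2 libraries against 60.5% and 52.1% in shCtrl libraries.

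Across the 11 paralog pairs, the ratio lay on the same side of the own control in all 3 knockdown libraries for 3, LDHB to LDHA, PFKFB4 to PFKFB3 and BNIP3L to BNIP3. Among single genes, 20.2% of all tested were higher and 21.4% lower in all 3, and no such share was computed for gene pairs. The changes of shCCT2 1 and 2 share the control shCtrl 1. With 1 control a set there are 6 arrangements of labels within sets and the smallest one-sided p is 0.1667, so no p is given. The PFKP to PFKL ratio differed from the own control by 0.41, 0.01 and -2.57 log2 in shCCT2 1, 2 and 3.

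The 10 hypoxia targets outside glycolysis had a median fitted log2 change of -0.04, with 5 above 0 and 5 below. VEGFA, the main angiogenic growth factor, stood at 85, 91.2 and 482 CPM in the shCCT2 libraries, against 92.5 and 171 CPM in the shCtrl libraries. It was far above the rest in shCCT2 3 alone, and the fitted change of 0.57 ± 0.36 (edgeR adjusted p = 0.550) was -0.07 without either set 2 library. ADM, which encodes the vasodilator peptide adrenomedullin, stood at 30.8, 24.7 and 19.4 CPM in the shCCT2 libraries, against 17.8 and 16.2 CPM in the shCtrl libraries. Every knockdown library lay above both controls for ADM, the log2 changes against the own control were 0.78, 0.47 and 0.25, and the fit gave 0.48 ± 0.25 (edgeR unadjusted p = 0.101, adjusted p = 0.542). Unlike LDHA, ADM had its smallest difference in set 2.

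EGLN3, a prolyl hydroxylase that marks HIF-1 alpha and is itself induced by HIF, stood at 3.77, 5.67 and 26.6 CPM in the shCCT2 libraries, against 5.77 and 13.1 CPM in the shCtrl libraries (0.28 ± 0.40). Both set 2 libraries were high for EGLN3, and the fitted change was -0.29 without either of them and 1.05 without shCtrl 1. CA9, which encodes the surface carbonic anhydrase IX, stood at 3.65, 8.06 and 2.46 CPM in the shCCT2 libraries, against 5.65 and 4.14 CPM in the shCtrl libraries (-0.29 ± 0.49). ANKRD37, an ankyrin repeat gene known as a HIF-1 target, stood at 0.837, 0.532 and 0.928 CPM in the shCCT2 libraries and 0.908 and 0.749 CPM in the shCtrl libraries, from 8.92 to 17 counts in the shCCT2 libraries and 14.1 and 15.7 in the shCtrl libraries. Both were low throughout with overlapping groups, and the fitted log2 change of ANKRD37 was -0.11 ± 0.56. NDRG1, a gene of the stress response, stood at 102, 235 and 186 CPM in the shCCT2 libraries, against 223 and 277 CPM in the shCtrl libraries (-0.48 ± 0.35). It was the 1 member that differed at least 2-fold from its control in set 1, in shCCT2 1. Of all 13123 genes tested, 602 differed so far in at least 1 of the set 1 knockdown libraries.

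BNIP3 and BNIP3L direct the removal of mitochondria. BNIP3 stood at 94.5, 132 and 119 CPM in the shCCT2 libraries, against 106 and 61.5 CPM in the shCtrl libraries. Its log2 change was -0.16, 0.32 and 0.94 by library and 0.45 ± 0.27 in the fit (edgeR adjusted p = 0.542), or 0.10 without shCCT2 3 and 0.09 without shCtrl 2. BNIP3L stood at 79.9, 124 and 98.9 CPM in the shCCT2 libraries, against 120.2 and 101 CPM in the shCtrl libraries (-0.15 ± 0.24), with overlap for both genes. The BNIP3L to BNIP3 ratio differed from that of the own control by -0.42, -0.27 and -0.98 log2 in shCCT2 1, 2 and 3.

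P4HA1 and P4HA2 encode the catalytic subunits of collagen prolyl 4-hydroxylase. P4HA1 stood at 43.9, 77.1 and 85.3 CPM in the shCCT2 libraries, against 59.3 and 172 CPM in the shCtrl libraries (-0.43 ± 0.35), and shCtrl 2 was the high library. P4HA2 stood at 70.2, 76.2 and 41.7 CPM in the shCCT2 libraries, against 65.0 and 47.2 CPM in the shCtrl libraries (0.02 ± 0.19). HIF1A, the gene for HIF-1 alpha, whose activity is set mostly at the protein level, stood at 612, 523 and 567 CPM in the shCCT2 libraries, against 470.4 and 440.1 CPM in the shCtrl libraries. Every knockdown library lay above both controls for HIF1A, the log2 changes against the own control were 0.38, 0.15 and 0.37, and the fit gave 0.31 ± 0.19 (edgeR adjusted p = 0.548). Left-out libraries gave 0.26 to 0.40.

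The sets are given side by side, and they share no control library. The median size of the log2 change was 0.13 in set 1 and 0.44 in set 2 over the members, beside 0.18 and 0.51 over all genes. In the set 2 pair, 20 members were higher in shCCT2 3 (48.8% of all genes) and 16 lower. There, 2 members were at least 2-fold higher in shCCT2 3, LDHA and VEGFA (8.37% of all genes), and 3 were at least 2-fold lower, PFKP, ALDOC and P4HA1 (13.8% of all genes). The 2 controls themselves differed at least 2-fold in 5 members, SLC2A3, ALDOC, PFKFB3, EGLN3 and P4HA1, all higher in shCtrl 2, where 29.7% of all genes differed so far. In 8 members both set 1 libraries lay on the opposite side of 0 from shCCT2 3, with 22.6% of all genes doing so. The mean change had the same sign in both sets for 24 of 36 members (66.7%), beside 62.5% of all genes. Across the 36 members the changes of the 2 sets had a Pearson r of 0.00 and a Spearman rho of 0.20, a description over genes that share their libraries, beside 0.31 and 0.35 over all genes.

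**Figure D4:**
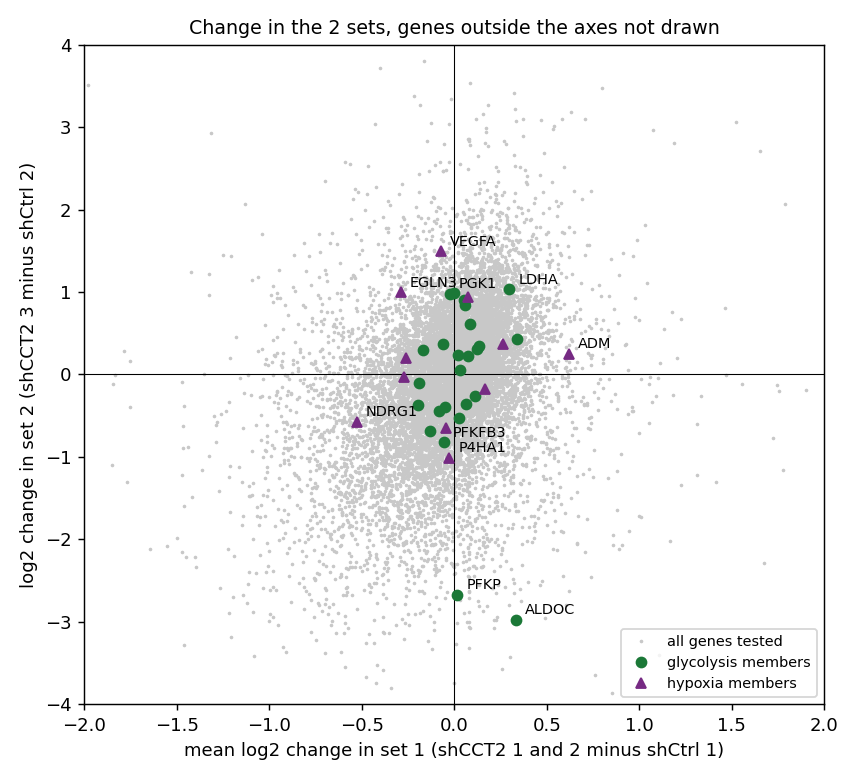
Mean log2 change of shCCT2 1 and 2 against shCtrl 1 in set 1 (x axis) and of shCCT2 3 against shCtrl 2 in set 2 (y axis), for all genes tested (grey, 26 outside the axes), glycolysis members (circles) and hypoxia members (triangles). Members spread less along x, where ADM is highest and NDRG1 lowest, than along y. They run from -2.97 to 1.5 along y, with PFKP and ALDOC lowest and VEGFA highest.

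The difference between the sets was tested as an interaction of knockdown and set, with 1 residual degree of freedom. No member and no gene passed an adjusted p under 0.05 in edgeR (0% of 13123 genes), and 9 members had an unadjusted p under 0.05 where 17.2% of all genes did. They were PFKP, ALDOC, TPI1, PGK1, ENO1, PKM, PFKFB3, LDHA and VEGFA. PFKP had the smallest p, with a set 2 minus set 1 difference of -2.71 ± 0.30 log2 (adjusted p = 0.0960 in edgeR), and its adjusted p was 0.296 with DESeq2's size factors and 0.373 without the filter on low counts. With robust estimation PFKP passed (adjusted p = 0.0147), 1 of 36 members where 1.41% of all genes passed. The set 2 pair also differed in its squamous markers, with sums of 9391 CPM in shCCT2 3 and 3655 CPM in shCtrl 2. Of the 12 markers, 10 were higher and 2 lower in shCCT2 3. KRT8 stood at 2386 CPM in shCCT2 3 and 703 CPM in shCtrl 2. In the same order, KRT18 stood at 2528 and 940 CPM and LAMB3 at 2405 and 727 CPM. KRT5 stood at 298 and 258 CPM, KRT14 at 98.0 and 87.6 CPM and KRT17 at 111 and 404 CPM. The part of these marker differences was not tested.

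None of the genes in 5 further lists passed the adjusted threshold of edgeR's test. Of 17 other transporter and enzyme isoforms tested, 8 were above 0 and 9 below, with a median of -0.10. SLC2A12, a glucose transporter, had the smallest p of that list, at 4.30, 5.25 and 2.62 CPM in the shCCT2 libraries against 10.4 and 13.7 CPM in the shCtrl libraries (-1.67 ± 0.41, edgeR adjusted p = 0.542). Every knockdown library lay below both controls in 4 of the 17 genes, SLC2A12 among them (8.28% of all genes). The transporter SLC16A7 (MCT2) had a fitted change of -1.04 ± 0.49, the phosphoglucomutase relative PGM2L1 -0.63 ± 0.32 and the insulin-responsive transporter SLC2A4 -1.02 ± 0.53. In the pentose phosphate pathway, 3 of 9 genes were above 0 and 6 below, with a median of -0.23. PGD, which makes NADPH, stood at 278, 248 and 104 CPM in the shCCT2 libraries, against 304 and 294 CPM in the shCtrl libraries (-0.78 ± 0.32). PRPS1, which makes phosphoribosyl pyrophosphate, had a fitted change of 0.51 ± 0.24, the transketolase gene TKT -0.40 ± 0.21 and the lactonase gene PGLS -0.48 ± 0.29.

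A list of 15 tested genes on the mitochondrial use of pyruvate held enzymes that oxidise it, PC, which carboxylates it, and kinases such as PDK2 and PDK3, which block its oxidation. Of these, 5 were above 0 and 10 below, with a median of -0.21. PC, pyruvate carboxylase, stood at 13.3, 17.2 and 28.2 CPM in the shCCT2 libraries, against 25.2 and 40.2 CPM in the shCtrl libraries (-0.63 ± 0.23, edgeR adjusted p = 0.542), and each knockdown library was lower than its own control. The other named genes of that list had fitted changes of -0.45 ± 0.24 for the kinase gene PDK2, -0.48 ± 0.27 for PDK3 and 0.47 ± 0.26 for IDH3A, a subunit of isocitrate dehydrogenase. In the HIF system, 7 of 14 genes were above 0 and 7 below, with a median of -0.08. ARNT, the partner of HIF-1 alpha, had a fitted change of -0.44 ± 0.26, the elongin subunit ELOB -0.33 ± 0.17, and the coactivators EP300 and CREBBP 0.48 ± 0.28 and 0.30 ± 0.19. Of 32 other hypoxia targets tested, 9 were above 0 and 23 below, with a median of -0.18. Of all 13123 genes tested, 6371 were above 0 and 6752 below. The libraries differed, with 8, 20 and 9 of the 32 higher than in the own control in shCCT2 1, 2 and 3. There, 22, 12 and 23 were lower, and the medians were -0.13, 0.16 and -0.39. The 2 controls differed at least 2-fold in 14 of the 32, where 29.7% of all genes did. In edgeR, 4 had an unadjusted p under 0.05, all below 0, where 4.57% of all genes did. MXI1, a repressor that opposes MYC, stood at 19.7, 25.8 and 10.8 CPM in the shCCT2 libraries, against 34.5 and 71.6 CPM in the shCtrl libraries (-1.55 ± 0.51, edgeR adjusted p = 0.542). ANGPTL4, a lipase inhibitor, and PLIN2, a lipid droplet coat protein, were 2 of these 4, and both were near 0 throughout set 1, so their values rest on the set 2 pair. ANGPTL4 stood at 3.55 CPM in shCCT2 3 against 21.7 CPM in shCtrl 2, and PLIN2 at 5.02 CPM against 24.0 CPM. TMEM45A stood at 0.943, 0.895 and 3.33 CPM in the shCCT2 libraries, against 1.56 and 9.17 CPM in the shCtrl libraries (-1.09 ± 0.43).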

How the data were processed

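RNA-seq libraries of SAS cells were compared between CCT2 hairpin and control hairpin. The authors deposited expected counts per gene in 2 tables, called set 1 and set 2, and per-library signal along transcripts. STAR 1.5.1, HTSeq and mm10, a mouse build, are listed in the submitters' processing notes, although human gene identifiers fill the tables. The human build, the use of strand in counting and the making of the signal files are not given in the sources used here. Antisense and overlapping genes cannot be told apart. Between 86.2% and 87.9% of values were exactly whole (tolerance 0).

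Tables were joined on gene identifier and counts rounded. The main test was edgeR 4.0.16 quasi-likelihood (R 4.3.3, TMM, low-count filter by group) on all 5 libraries with set as a term, 2 residual degrees of freedom and a Benjamini-Hochberg adjusted p under 0.05 over 13123 genes. The common biological coefficient of variation was 0.255. Errors after ± are standard errors of fitted log2 changes. Single-library log2 changes use CPM with 0.5 added. Levels per kilobase use GENCODE principal transcripts, with all exons as the alternative. DESeq2 1.42.0, other scaling, filters, robust estimation, a replicate block and left-out libraries were alternatives. The fit was tested on simulated data. No library was a copy of another, since chi-square per degree of freedom was at least 19.4 for every pair.

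The members and lists were chosen with earlier results of these data known. All members are named; values in every library are given for paralog pairs and for the 8 members with the smallest p, and, added for completeness, for the rest. Other lists give up to 4 genes with the smallest p. Not every marker gene is reported here.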

Additional observations from a re-analysis of the deposited data

Results flagged for a closer look

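In 8 members both set 1 knockdown libraries lay on one side of their control and the set 2 library on the other, as in 22.6% of all genes. The difference, set 2 minus set 1 on the log2 scale, was tested as an interaction in edgeR, and none passed. The difference was 0.46 for GPI (adjusted p = 0.483), -2.71 for PFKP (adjusted p = 0.0960) and -4.10 for ALDOC (adjusted p = 0.144). It was -0.43 for SLC16A3 (adjusted p = 0.491), 1.57 for VEGFA (adjusted p = 0.135) and 0.75 for ANKRD37 (adjusted p = 0.741). EGLN3 differed by 1.31 (adjusted p = 0.293) and P4HA2 by -0.35 (adjusted p = 0.578). ALDOC rests on the 202 counts of shCtrl 2, and ANKRD37 on 17 or fewer counts a library.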

How the results depend on the processing

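Of the 36 members, 16 kept 1 sign over the 14 alternatives. No member was called for knockdown against control in the alternatives that kept both controls. The others leave 1 control library, so no p is given for them. DESeq2 called 17 genes where edgeR called 0, and leaving out 1 library gave 0 to 2 genes (2 without shCCT2 2). In the interaction, robust estimation called 1 member, PFKP, and 185 genes (1.41%), while DESeq2's size factors and no filter on low counts called 0. Leaving out 1 library gave medians of 0.027 to 0.26 for glycolysis and 0.028 to 0.29 for hypoxia genes, the highest without shCtrl 1. The count of paralog pairs with 1 direction ran from 4 to 11, and the 11 came without shCtrl 1, where 1 knockdown library is left with a control. The ranges over left-out libraries were -0.50 to 0.028 for HK1, -2.66 to 0.017 for PFKP, -3.49 to 0.58 for ALDOC, -0.023 to 1.01 for PGK1, -0.071 to 1.53 for VEGFA, -0.98 to 0.029 for P4HA1, -0.29 to 1.05 for EGLN3 and 0.30 to 1.06 for LDHA.

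The replicate numbers do not pair the samples: deviations of same-numbered libraries correlated at 0.69 in the pair that shares a set and at -0.62 in the pair that does not. Deviations were taken from the group mean, so those of the 2 controls are mirror images. The -0.62 of shCCT2 2 with shCtrl 2 therefore restates its 0.62 with shCtrl 1. With the replicate number as a block in place of the set, 0 genes were called, the glycolysis median was -0.01 and the hypoxia median -0.15, and 11 of 36 members changed sign. The value was then 0.059 for PFKM, -0.090 for PGK1, -0.011 for ENO1, 0.049 for PGM1, -0.51 for VEGFA, -0.91 for EGLN3, 0.31 for SLC16A3, -0.23 for HK2, -0.17 for ALDOA, 0.17 for CA9 and -0.010 for LDHB. Set 1 alone, an alternative chosen after seeing the data, turned the sign of 12 members and gave 0.028 for HK1, 0.018 for PFKP, 0.58 for ALDOC, -0.022 for PGK1, -0.070 for VEGFA and 0.029 for P4HA1. All 12 of these turns rest on the set 2 pair by construction, since the fit on set 1 alone leaves that pair out. In the fit with the replicate block, no control shares the number of the set 2 knockdown library. That library therefore adds nothing to the knockdown estimate there. The same block sets shCCT2 2 against shCtrl 2, which belongs to the other set. The part of each point in the 11 sign changes was not tested.

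Each set has 1 control, so set and control library cannot be told apart. The fit has 2 residual degrees of freedom, so a p that misses the threshold does not show that levels were alike. ANKRD37, and ALDOC outside shCtrl 2, had 20 or fewer counts a library, which limits any statement on their direction.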
